A study of Mus musculus with 98 samples.

Results

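The 6 libraries described here came from primary hippocampal neurons of CD1 mouse embryos that received an extra copy of Acss2 (upACSS2) or an empty vector and were then given PBS, out of 98 samples in the series. Members were chosen by the sample titles: 3 libraries with upACSS2 and PBS, and 3 with vector and PBS, all harvested on day 9 of culture. Per the labels, all of these neurons were exposed on day 5, for 48 hours, to a PhP.eB virus that carried Acss2 or nothing, were washed with PBS on day 7, and then received hAD-tau or PBS. PhP.eB is an engineered AAV capsid with high uptake in brain cells. No day 9 group was free of virus, so the controls carried a virus and the wash as well. The 6 day 9 libraries with hAD-tau (3 upACSS2, 3 vector) entered the same statistical fit and are given beside the PBS values. The labels do not expand the name hAD-tau. For 2 of these 4 groups title and treatment field disagree: upACSS2 with PBS has hAD-tau in the treatment field, and vector with hAD-tau has PBS there. Titles were used throughout, and Acss2 itself checks the virus but not the tau or PBS. The promoter that drives Acss2 in the virus and the share of cells it reached are not given in the sources used here.

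ACSS2 is the cytosolic and nuclear acetyl-CoA synthetase. It joins acetate to coenzyme A, and the acetyl-CoA it makes can feed lipid synthesis or, near chromatin, histone acetylation. In neurons it is known as a chromatin-bound source of acetyl-CoA for activity-dependent and memory-related transcription. A culture of embryonic hippocampus holds mostly postmitotic glutamatergic and GABAergic neurons, together with some astrocytes, neural progenitors and oligodendrocyte precursors, the dividing glial cells that express Pdgfra, Cspg4 and Sox10.

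The 6 libraries held 15941077 to 33960722 counts, and 14022 of 25239 genes passed the filter on low counts over the 12 day 9 libraries. Levels are given as CPM, the usual read count scaled to library size with TMM factors, which is not corrected for gene length. Neuronal genes were abundant in all 6: Map2 at 2225 to 2659.9 CPM, Tubb3 at 1395 to 1598 CPM, the glutamatergic marker Slc17a7 at 764 to 855 CPM and the GABAergic marker Gad1 at 258 to 295 CPM. Astrocyte RNA was also present (Gfap 321 to 389.6 CPM). Defining microglial (Cx3cr1, 0 to 0.126 CPM), endothelial (Cldn5, 0 to 0.063 CPM), choroid plexus (Ttr, 0.12 to 0.289 CPM) and mature oligodendrocyte (Mag, 0 to 0.063 CPM) markers were at or near 0. The labels do not say that replicates were separate cultures, so p-values measure only the spread between these samples, which may be technical. Vector in tau replicate 3 stood apart from its group, with 1.02% of its counts from the ribosomal transcript Rn45s against 0.198% to 0.474% in the other 11. In PBS this share was 0.395%, 0.272% and 0.474% with vector and 0.261%, 0.222% and 0.217% with upACSS2. These 2 groups did not overlap, and whether this bears on the contrast was not tested. Both second PBS replicates (vector and upACSS2) stood apart from the other 10 day 9 libraries on the third principal component, which held 10.6% of the variance.

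Acss2 lies on GRCm38 chromosome 2, 155517948 to 155585724, plus strand. The 3 upACSS2 libraries in PBS held 1412, 1636 and 1855 CPM of Acss2, and the 3 vector libraries held 48.5, 39.3 and 43.5 CPM. The log2 fold change was 5.21 ± 0.09 (SE; adjusted p = 1.19e-21, edgeR quasi-likelihood test with Benjamini-Hochberg adjustment), and the exact permutation test gave 0.1, two-sided, the smallest p that 3 against 3 can reach. In tau the same contrast was 5.38 on the log2 scale, with 1727 to 2040.2 CPM against 43.3 to 49.6 CPM. The groups did not overlap, and in all 12 libraries the level of Acss2 matched the virus named in the title. Exons of Acss2 overlap those of Gss and Acss2os, and how such shared reads were assigned is not known.

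Raised Acss2 was accompanied by many small differences. In PBS 1437 of 14022 genes passed the threshold of 0.05 (10.2% of genes tested), 687 higher (4.9%) and 750 lower (5.35%) with upACSS2. The median size among them was 0.24 on the log2 scale, with quartiles of 0.18 and 0.32. A total of 72 genes passed with a fold over 1.5 (17 higher, 55 lower), and 18 with a fold over 2. The 3 upACSS2 and 3 vector libraries did not overlap for 1387 of the 1437 called genes, against 30.7% of all genes tested. The called genes were chosen by a test of these same libraries, so that count describes them only. A subset of 347 genes (159 higher, 188 lower) passed every time 1 of the 6 PBS libraries was omitted. The count itself fell to 529 without vector replicate 1, 629 without upACSS2 replicate 2, 803 without upACSS2 replicate 1, 869 without upACSS2 replicate 3, 910 without vector replicate 2 and 220 without both second replicates. With all 24 unstimulated libraries of days 9 and 21 in 1 fit, 2 genes passed, Acss2 and Pdgfra.

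**Figure D1:**
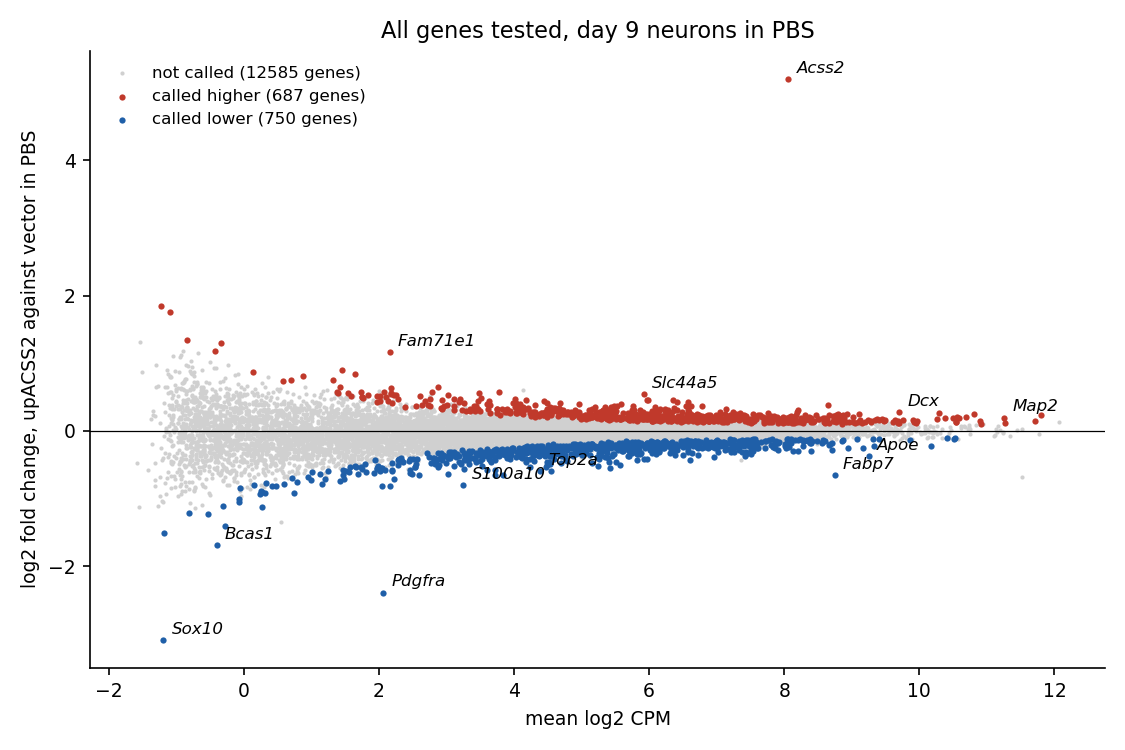
Mean log2 CPM over the 6 PBS libraries (x axis) against the log2 fold change of upACSS2 over vector in PBS (y axis) for the 14022 genes tested. Red points passed the threshold higher with upACSS2 (687), blue points lower (750). Acss2 stands alone at the top, Sox10 and Pdgfra lie lowest, and most coloured points lie within a narrow band around 0.

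Genes of oligodendrocyte precursors were lower. Of 23 listed markers 19 were tested, 8 fell and 1 rose (47.4% called, against 10.2% of all genes tested). Their median log2 fold change was -0.30, against -0.0017 over all genes tested. Pdgfra, the receptor for PDGF-A that drives division of these cells (GRCm38 chromosome 5, 75152292 to 75198215), was at 1.99, 1.89 and 1.79 CPM with upACSS2 and at 12.8, 4.52 and 11.4 CPM with vector. All 3 upACSS2 libraries lay below the lowest vector library, although vector replicate 2 held less than the other vector libraries. Pdgfra fell by 2.39 ± 0.33 in log2 units (edgeR, SE of the fit, adjusted p = 0.000458) and passed in each of the 15 other fits tried. In tau the vector libraries held 2.47 to 6.78 CPM and the upACSS2 libraries 1.74 to 3.96 CPM, which overlap (log2 fold change -0.64, adjusted p = 0.476).

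Sox10, the transcription factor that specifies the oligodendrocyte lineage (chromosome 15, 79154908 to 79165240), had 4, 1 and 2 counts in the upACSS2 libraries and 43, 7 and 21 in the vector libraries. Scaled to library size and pooled over each group, the vector level was 9.00 times that of upACSS2 (95% exact interval 4.15 to 23.2, counting error only), and Sox10 passed in the test across libraries (adjusted p = 0.00176). Cspg4, the NG2 proteoglycan of the precursor surface, was at 3.67, 3.02 and 4.27 CPM with upACSS2 and 6.94, 4.29 and 6.54 CPM with vector (log2 fold change -0.72, adjusted p = 0.0151). Its highest upACSS2 value almost met its lowest vector value. Matn4, a matrix protein of these cells, changed by -1.05 (adjusted p = 0.026) and the lineage factors Olig2 by -0.54 and Sox8 by -0.36. Lhfpl3 changed by -0.32, and Megf11 rose by 0.26. The groups overlapped for Sox8 and Lhfpl3.

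Other members did not pass: Olig1 was at 208 to 228 CPM with upACSS2 and 212 to 237 CPM with vector, and Cspg5 and Vcan differed by -0.12 and 0.10 on the log2 scale. The summed CPM of the 23 markers overlapped, 1333 to 1432 with upACSS2 against 1327 to 1507 with vector. Most of that sum came from Ptprz1 (573 to 666 CPM with upACSS2, 549 to 670 CPM with vector), Cspg5 and Olig1. It therefore says little about low members such as Pdgfra and Sox10. In these bulk samples fewer cells of a type and less RNA per cell cannot be told apart. Gpr17, Neu4, Nkx2-2 and Susd5 were too low to test. Members named beyond the 4 largest changes of each list were chosen after their values were seen. With single PBS libraries left out 2 to 9 members fell, the fewest without vector replicate 1, and the medians were -0.41 to -0.19. Without both second replicates 5 members fell and 0 rose, with a median of -0.38.

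Of 22 markers of later oligodendrocyte stages 10 were tested, and 3 fell (30% called, against 10.2% of all genes tested). Bcas1, a marker of newly formed oligodendrocytes, was at 0.398, 0.126 and 0.596 CPM with upACSS2 and 1.31, 1.04 and 1.45 CPM with vector (log2 fold change -1.69, adjusted p = 0.00377). Mbp, a myelin protein gene, fell by 0.31 and Cnp, the myelin enzyme CNPase, by 0.25.

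**Figure D2:**
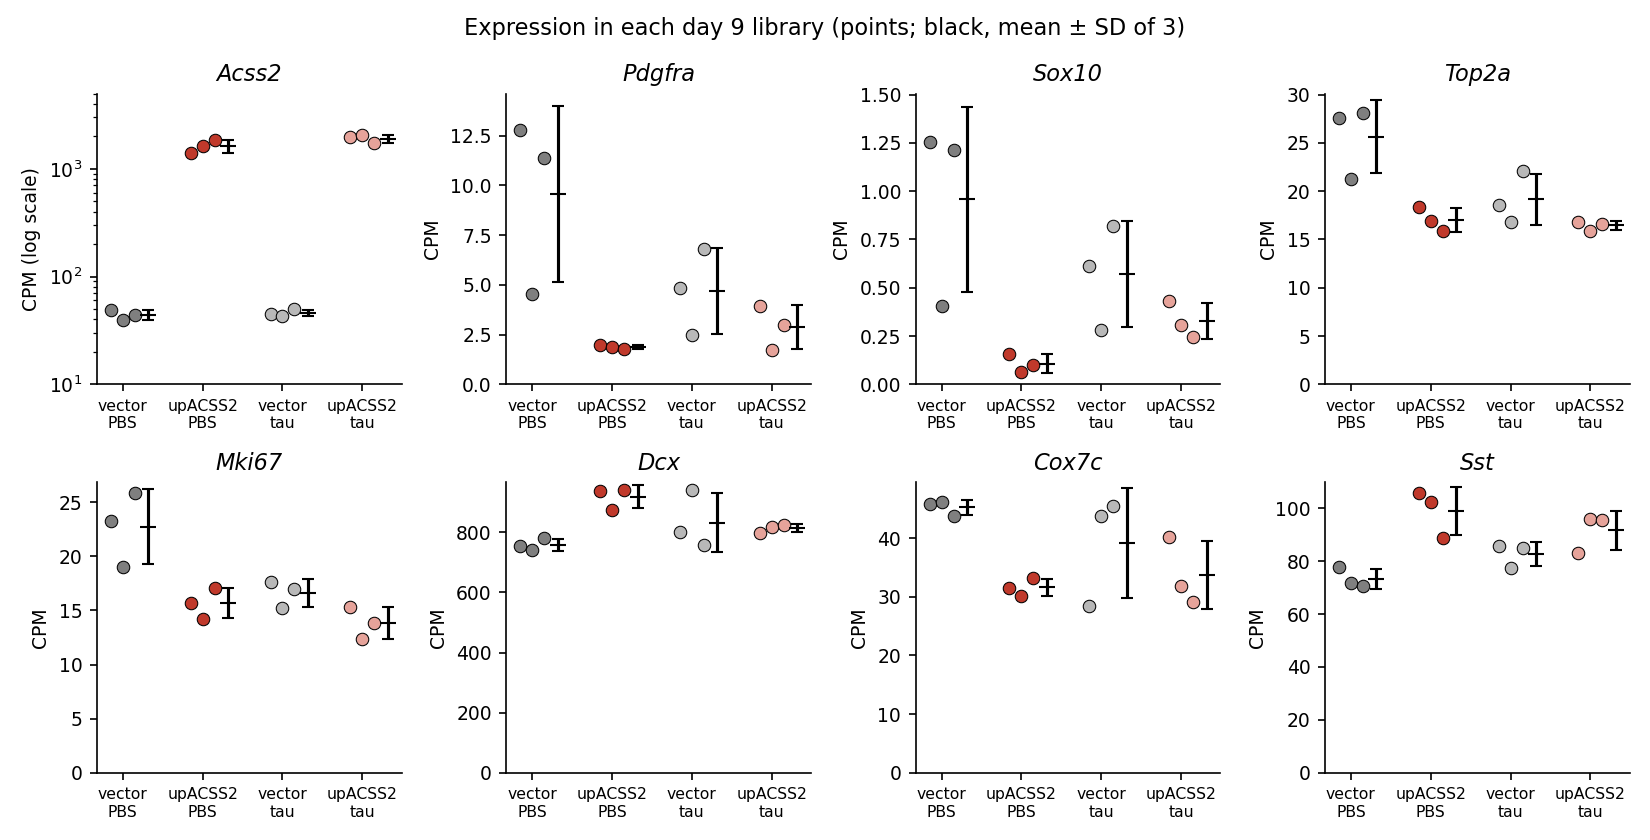
CPM of 8 genes in each of the 12 day 9 libraries, with the mean and SD of each group of 3 in black. The Acss2 axis is logarithmic. In PBS the 3 upACSS2 points of Pdgfra, Sox10, Top2a, Mki67 and Cox7c lie below all 3 vector points, and those of Dcx and Sst lie above. In tau the 2 groups overlap for each of these 7 genes.

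Genes of dividing cells were lower as a group. All 30 members of a proliferation list were tested, 15 fell, 0 rose, and 29 of 30 had a negative log2 fold change, with a median of -0.38. The share called was 50%, against 10.2% of all genes tested. Mki67, which encodes the Ki-67 antigen of cycling cells, was at 15.7, 14.2 and 17.03 CPM with upACSS2 and 23.3, 19.0 and 25.9 CPM with vector (log2 fold change -0.53 ± 0.10 SE, adjusted p = 0.00223, edgeR). Top2a, the topoisomerase that untangles replicated chromosomes, was at 18.3, 16.95 and 15.8 CPM against 27.6, 21.3 and 28.1 CPM. Both genes had no overlap between the groups, and vector replicate 2 was the lowest of the vector libraries. Cenpf and Bub1b, of the kinetochore and spindle checkpoint, fell by 0.57 and 0.60, and Cdk1, the kinase that starts mitosis, fell by 0.56. Of the replication helicase, the subunits Mcm5, Mcm6, Mcm3 and Mcm7 fell by 0.48, 0.37, 0.36 and 0.34, and Mcm2 (-0.14) and Mcm4 (-0.02) did not pass. The summed CPM of the list was 224 to 233 with upACSS2 and 261 to 307 with vector, with no overlap, and 205 to 217 against 218 to 255 in tau. Pbk and Ckap2l, mitotic genes outside the list, fell by 0.81 and 0.63. Leaving out single PBS libraries gave 6 (without vector replicate 1) to 19 (without vector replicate 2) members lower and medians of -0.46 to -0.33, and leaving out both second replicates gave 6.

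The promoters of these genes are shown because the members moved together and the CCAAT box, bound by NF-Y, is a known element of mitotic gene promoters. The sequences are the 250 bases before the RefSeq start in build GRCm38.p6, read in the direction of the gene, and capitals mark CCAAT or its reverse complement ATTGG: Top2a at chr11:99024190-99024439, Cdk1 at chr10:69352913-69353162, Mki67 at chr7:135716380-135716629, Cenpf at chr1:189688087-189688336 (all on the minus strand) and Bub1b at chr2:118597961-118598210 (plus strand).
Top2a: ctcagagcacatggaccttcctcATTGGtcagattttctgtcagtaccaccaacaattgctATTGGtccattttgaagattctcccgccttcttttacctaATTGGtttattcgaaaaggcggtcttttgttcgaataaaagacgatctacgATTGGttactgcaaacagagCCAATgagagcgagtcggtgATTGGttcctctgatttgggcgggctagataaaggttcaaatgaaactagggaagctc
Cdk1: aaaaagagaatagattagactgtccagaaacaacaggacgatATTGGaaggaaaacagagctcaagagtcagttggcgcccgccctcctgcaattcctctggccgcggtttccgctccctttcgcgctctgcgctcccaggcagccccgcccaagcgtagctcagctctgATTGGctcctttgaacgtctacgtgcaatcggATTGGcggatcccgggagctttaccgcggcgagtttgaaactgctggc
Mki67: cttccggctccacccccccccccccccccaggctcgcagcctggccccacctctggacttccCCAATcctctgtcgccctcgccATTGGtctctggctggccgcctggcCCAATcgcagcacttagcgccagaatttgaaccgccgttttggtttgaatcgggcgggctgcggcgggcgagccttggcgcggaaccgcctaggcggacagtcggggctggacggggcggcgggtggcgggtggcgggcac
Cenpf: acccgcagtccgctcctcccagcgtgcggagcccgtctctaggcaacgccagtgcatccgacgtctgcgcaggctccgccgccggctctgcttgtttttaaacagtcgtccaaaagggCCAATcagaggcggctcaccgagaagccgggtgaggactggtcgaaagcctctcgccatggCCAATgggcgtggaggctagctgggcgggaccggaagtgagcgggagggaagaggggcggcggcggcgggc
Bub1b: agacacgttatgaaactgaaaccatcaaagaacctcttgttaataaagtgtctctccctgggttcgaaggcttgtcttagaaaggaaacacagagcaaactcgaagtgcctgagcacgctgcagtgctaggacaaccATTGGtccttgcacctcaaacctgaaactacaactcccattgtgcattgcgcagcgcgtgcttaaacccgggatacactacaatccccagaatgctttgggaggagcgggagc
Top2a had 6 such boxes, Cdk1 and Mki67 3 each, Cenpf 2 and Bub1b 1. Of the 30 list members 24 matched the promoter table, and 22 of them (91.7%) had CCAAT on either strand, against 40.5% of the 11122 tested genes that matched and 37.5% of all 27025 genes of the table. A gene counted if any of its starts had a match. The CHR element TTTGAA (reverse complement TTCAAA), another element of mitotic promoters, was present for 8 of the 24 (33.3%) against 12.4% of tested genes. These matches describe the letters of the windows and say nothing about binding.

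Neural progenitor markers were lower too. Of 24 tested, 5 fell and 0 rose (20.8% called, against 10.2% of all genes tested), and 20 were negative, with a median of -0.13. Sox2, a stem cell factor, was at 36.8, 35.8 and 35.3 CPM with upACSS2 and 45.8, 42.2 and 43.8 CPM with vector (log2 fold change -0.29, adjusted p = 0.00394). Hes5, a Notch target, fell by 0.54, Ptn by 0.30, Nes (nestin) by 0.28 and Hes6 by 0.27. Pax6 (-0.27) and Vim (-0.11) did not pass. With single PBS libraries left out, 1 (without vector replicate 1) to 5 members fell. The summed level of 25 listed genes was 1323 to 1427 CPM with upACSS2 and 1431 to 1573 CPM with vector.

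Of 23 tested astrocyte markers 3 fell and 0 rose, with a median of -0.07. The share called, 13.04%, was near the 10.2% over all genes tested. Fabp7, a fatty acid binding protein of radial glia, astrocytes and oligodendrocyte precursors, was at 387, 307 and 334 CPM with upACSS2 and 566, 496 and 559 CPM with vector (log2 fold change -0.65 ± 0.11 SE, adjusted p = 0.0013). Apoe, the lipid carrier secreted by astrocytes, was at 558, 512 and 533 CPM against 717, 680.3 and 685 CPM (-0.38, adjusted p = 0.00201), and Ndrg2 fell by 0.26. The vector values of all 3 genes lay above all upACSS2 values. The other tested members did not pass, although 19 of the 23 were negative. Among them Slc1a3 was at 496 to 533 CPM against 493 to 538 CPM. Aqp4 was at 48.0 to 64.0 against 50.04 to 63.6 CPM, and Gfap differed by -0.19 (adjusted p = 0.0796). The summed level of 25 astrocyte markers was 3883 to 4269 CPM with upACSS2 and 4373 to 4789 CPM with vector. The part of glial or progenitor RNA in the other gene groups was not tested.

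None of the tested microglial (4 of 22 listed), vascular and meningeal (15 of 25) or choroid plexus (7 of 12) markers passed with edgeR or DESeq2. At an unadjusted p under 0.05 the numbers were 0, 2 and 0. Their summed levels in PBS were 20.04 to 22.5, 43.7 to 49.9 and 18.1 to 18.5 CPM with upACSS2, and 23.1 to 25.3, 39.9 to 47.3 and 18.3 to 18.9 CPM with vector.

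Genes of young, growing neurons were higher. Of 37 tested genes of immature neurons and axon growth, 11 rose and 1 fell (Igfbpl1, -0.31), with a median of 0.14. The share called was 32.4%, against 10.2% of all genes tested. Dcx, doublecortin, a microtubule protein of migrating neurons (chromosome X, 143855842 to 143933311), was at 938, 874 and 942 CPM with upACSS2 and 754, 740.4 and 779 CPM with vector. The groups did not overlap, and the log2 fold change was 0.28 ± 0.05 (SE; adjusted p = 0.00317, edgeR). Unc5d, a netrin receptor, rose by 0.30, Plxna2, a semaphorin receptor, by 0.24, the tubulin gene Tuba1a by 0.24 and the collapsin response genes Dpysl5 and Dpysl3 by 0.19 and 0.14. L1cam and Robo1, which guide axons, rose by 0.18 and 0.15. Single libraries left out gave 7 (without vector replicate 1) to 11 members higher, and leaving out both second replicates gave 5. The dendritic gene Map2 was at 2640.2, 2536 and 2659.9 CPM against 2283, 2225 and 2329.7 CPM (0.20, adjusted p = 0.0029), and Mapt, which encodes tau, rose by 0.12 (adjusted p = 0.04).

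**Figure D3:**
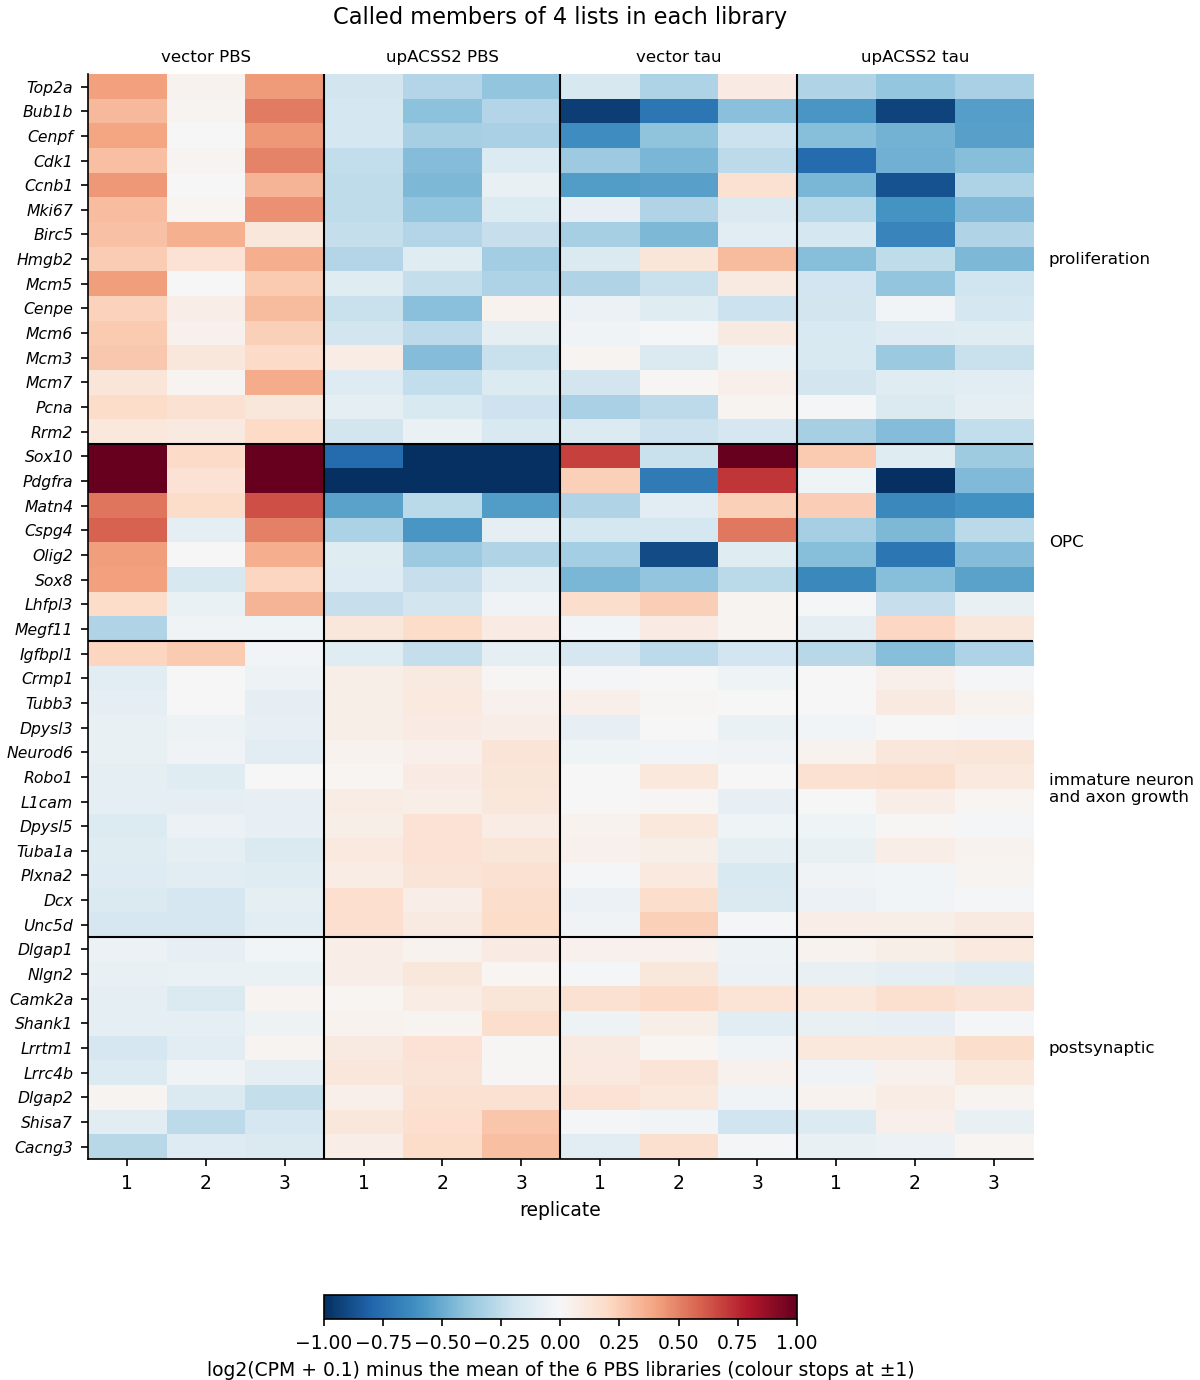
Level of called members of 4 lists in the 12 day 9 libraries (columns), as log2(CPM + 0.1) minus the mean of the 6 PBS libraries. Red is higher and blue lower, the colour stops at 1 in either direction, and the genes shown were chosen by the PBS contrast. Most proliferation and precursor genes that fell are red in vector PBS replicates 1 and 3, near white in vector PBS replicate 2 and blue in the upACSS2 PBS libraries, and the immature neuron and postsynaptic genes that rose are pale red with upACSS2 in PBS.

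Those synaptic receptor and postsynaptic genes that passed were all higher, by small amounts. Of 39 tested postsynaptic genes 9 rose and 0 fell (23.1% called, against 10.2% of all genes tested), with a median of 0.10. Shisa7, an auxiliary subunit of receptors at the synapse, was at 101, 104 and 113 CPM with upACSS2 and 85.9, 77.5 and 82.8 CPM with vector (log2 fold change 0.36, adjusted p = 0.0013), and Cacng3, which escorts AMPA receptors, rose by 0.38. The scaffold genes Dlgap2, Dlgap1 and Shank1 rose by 0.22, 0.12 and 0.16, and the adhesion genes Lrrc4b and Lrrtm1 by 0.17 and 0.17. Of 23 glutamate receptor genes 6 rose and 0 fell (26.1% called), with a median of 0.14. The kainate receptor Grik1 was at 31.7, 29.7 and 32.5 CPM against 25.6, 25.4 and 27.6 CPM (0.26, adjusted p = 0.0165). The AMPA subunit Gria4 rose by 0.16 and the NMDA subunit Grin1 by 0.14. Of 19 GABA and glycine receptor genes 5 rose and 0 fell (26.3% called, median 0.09), among them Gabbr2 (0.19), Gabrb1 (0.17) and Gabra2 (0.16). Leaving out vector replicate 1 or any 1 of the upACSS2 replicates gave 2 GABA and glycine receptor genes higher. Of 23 sodium and calcium channel genes 13.04% were called, near the 10.2% over all genes tested. Scn3b, Cacna1h and Scn3a rose by 0.22, 0.23 and 0.14, and 0 fell. From 1 (without vector replicate 2 or upACSS2 replicate 2) to 5 (without vector replicate 3) of the 23 rose when 1 library was left out. Of 48 potassium and HCN channel genes 1 rose (Kcnc2, 0.22) and 1 fell (Kcnip3, -0.26), which is 4.17% called, and the median was -0.0026.

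Of 36 presynaptic genes 3 rose and 2 fell, a share of 13.9% called, near the 10.2% over all genes tested. Syn1, a synaptic vesicle phosphoprotein, was at 597, 598 and 603 CPM with upACSS2 and 509, 502 and 506 CPM with vector (0.25, adjusted p = 0.00223), and shares exon positions with Araf. Nrxn3 rose by 0.24 and Syt1 by 0.15. Vamp1, a vesicle SNARE, fell in PBS from 19.2, 21.1 and 17.6 CPM with vector to 14.8, 14.8 and 15.1 CPM with upACSS2 (-0.37, adjusted p = 0.00533) and passed in tau as well (-0.53, adjusted p = 0.00138). Snap25 fell by 0.12. With single libraries left out, 2 (without vector replicate 1) to 6 postsynaptic and 1 (without vector replicate 1 or 2 or upACSS2 replicate 3) to 3 glutamate receptor genes rose. Without both second replicates the number of members that rose was 1 of the postsynaptic, 1 of the glutamate receptor and 0 of the GABA receptor genes, while their medians stayed at 0.06 to 0.12.

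Interneuron genes that passed were higher as well. Of 27 tested 6 rose and 0 fell (22.2% called, against 10.2% of all genes tested), with a median of 0.13. In sign 19 were positive and 8 negative, among the latter Dlx6 (-0.30), Sox6 (-0.21) and Tac1 (-0.18). Sst, the neuropeptide somatostatin (chromosome 16, 23889573 to 23890958), was at 106, 102 and 88.6 CPM with upACSS2 and 77.8, 71.8 and 70.7 CPM with vector (0.43 ± 0.06 SE, adjusted p = 0.00101). Dlx1, a homeobox factor of the ventral forebrain, was at 19.2, 21.4 and 18.3 CPM against 15.3, 14.4 and 14.5 CPM (0.40, adjusted p = 0.00223), and shares exon positions with Dlx1as. Nxph1 rose by 0.31, Lhx6 by 0.17 and Reln by 0.17. Gad1 was at 277 to 295 CPM against 258 to 287 CPM and did not pass. Gad2 (0.13), Slc32a1 (0.07) and Dlx2 (0.14) did not pass either. Single libraries left out gave 3 (without vector replicate 2) to 5 interneuron genes higher. The summed level of the 30 listed genes was 2476 to 2569.6 CPM with upACSS2 and 2313 to 2355 CPM with vector. In tau it was 2474 to 2553 against 2302 to 2347 CPM. Of 28 excitatory neuron genes 4 rose (Wfs1 by 0.27, Mef2c by 0.20, Grik4 by 0.15 and Neurod6 by 0.14) and 1 fell (Cpne7, -0.25), with a median of 0.08. Their share called was 17.9%, against 10.2% of all genes tested.

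Around the enzyme itself, 5 of 29 tested genes of acetyl-CoA supply passed with Acss2 left out (17.2%, against 10.2% of all genes tested). Of these 1 rose and 4 fell, and the list median was -0.03. The number that fell ran from 2 (without vector replicate 1 or upACSS2 replicate 3) to 5 with 1 library left out, and leaving out both second replicates gave 0. Pdha1 and Pdhb, subunits of pyruvate dehydrogenase, fell by 0.15 and 0.18, and Dld, the subunit it shares with other complexes, fell by 0.17. Slc25a20, which carries acylcarnitines into mitochondria, fell by 0.34, and Cs, citrate synthase, rose by 0.12. Acly, the other main source of cytosolic acetyl-CoA, was at 707 to 765 CPM with upACSS2 and 663 to 774 CPM with vector. The mitochondrial relative Acss1 was at 9.01 to 10.97 CPM against 11.004 to 15.5 CPM (-0.36, adjusted p = 0.059). Of 30 acetylation writers and erasers 16.7% passed: Naa60, Ep300 and Ncoa1 rose by 0.20, 0.18 and 0.16, and Sirt3 and Hdac11 fell by 0.29 and 0.22. Without vector replicate 2 or upACSS2 replicate 2, 0 of the list rose. Sirt3 shares exon positions with the proteasome gene Psmd13, and the strand setting of the counting is not given. Of 23 fatty acid synthesis genes Elovl2 and Tecr, of chain elongation, rose by 0.24 and 0.25, and Thrsp fell by 0.33. Of 23 sterol synthesis genes Srebf2 and Nsdhl rose by 0.15 and 0.17, and Pmvk fell by 0.24. Both synthesis lists had 13.04% of members called, near the share over all genes, and without vector replicate 3 the number of sterol synthesis genes that fell was 6. Of 25 glycolysis and lactate genes 1 fell (Pfkp, -0.14), or 4% called.

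Of 13 tested histone genes, H2bc6, a replication-type H2B gene, rose from 1.60, 2.55 and 1.74 CPM with vector to 3.07, 3.97 and 3.77 CPM with upACSS2 (0.91, adjusted p = 0.00573) and passed in tau at 0.90 (adjusted p = 0.0473). H2az2, Macroh2a1 and H1f0, variant and linker histone genes, fell by 0.36, 0.25 and 0.24. The share of histone genes called in PBS was 30.8%, against 10.2% of all genes tested. Histone genes have near-identical copies, so their reads may have been shared among them.

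Genes of mitochondrial respiration were lower. Of 38 tested nuclear genes of the respiratory chain 15 fell and 0 rose (39.5% called, against 10.2% of all genes tested). In sign 32 were negative, and the median was -0.10. Cox7c, of complex IV, was at 31.4, 30.2 and 33.1 CPM with upACSS2 and 45.9, 46.2 and 43.7 CPM with vector (-0.52 ± 0.12 SE, adjusted p = 0.008). Ndufa1, of complex I, was at 33.1, 33.4 and 32.9 CPM against 42.9, 45.4 and 44.5 CPM (-0.41, adjusted p = 0.00385). Cycs, cytochrome c, fell by 0.38, Cox6c by 0.34 and Uqcrb, of complex III, by 0.27. Groups did not overlap for any of Cox7c, Ndufa1, Cycs and Cox6c. Single libraries left out gave 6 (without vector replicate 2) to 15 members lower, and leaving out both second replicates gave 3. None of the 13 mitochondrially encoded genes was analysed here.

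Proteasome and cytosolic ribosome genes were also lower. These groups were picked by symbol after the values were seen, which makes their counts a description. Of 36 proteasome subunits 18 fell and 0 rose (50% called), with a median of -0.16 (Psmb5 -0.47, Psmb4 -0.29, Psmd6 -0.26). Of 76 cytosolic ribosomal proteins 22 fell and 0 rose (28.9% called, median -0.09, Rpl39 -0.54, Rpl35a -0.42). Of 78 mitochondrial ribosomal proteins 8 fell and 0 rose (10.3% called, against 10.2% of all genes tested). Of 333 genes with a Zfp symbol 13 rose and 5 fell (5.41% called), and of 57 clustered protocadherins 4 rose and 0 fell (7.02%). Both shares were below the 10.2% of all genes tested. Several ribosomal proteins have many processed pseudogenes, which can take reads from the parent gene.

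These groups differ in transcript length, and length itself moved with the fold change in PBS. Over 10 bins of genes by exon length (GENCODE vM21, 98.3% of genes tested matched), the median log2 fold change rose from -0.07 in the shortest bin (median 1066.5 bases) to 0.05 in the longest (9088 bases). The shortest bin held 18 genes higher and 178 lower, and the longest 140 higher and 32 lower. In tau the same bins had medians of 0.00089 and -0.0056. Median lengths were 969 bases for cytosolic ribosomal proteins, 1363 for the respiratory chain and 1561 for the proteasome, against 6074 for immature neuron, 5786 for glutamate receptor and 5510 for postsynaptic genes, and 3437 for all genes tested. Proliferation (3400) and precursor genes (3213) were near the overall value. With the length trend taken out, the respiratory chain had 7 members lower and a median of -0.04. Proliferation then had 14 lower (-0.41), precursors 9 lower (-0.31) and immature neuron genes 10 higher (0.11). Values after this step are not given here for glutamate receptor, postsynaptic, proteasome and cytosolic ribosomal genes. Whether their differences remain without the length trend is therefore not shown.

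**Figure D4:**
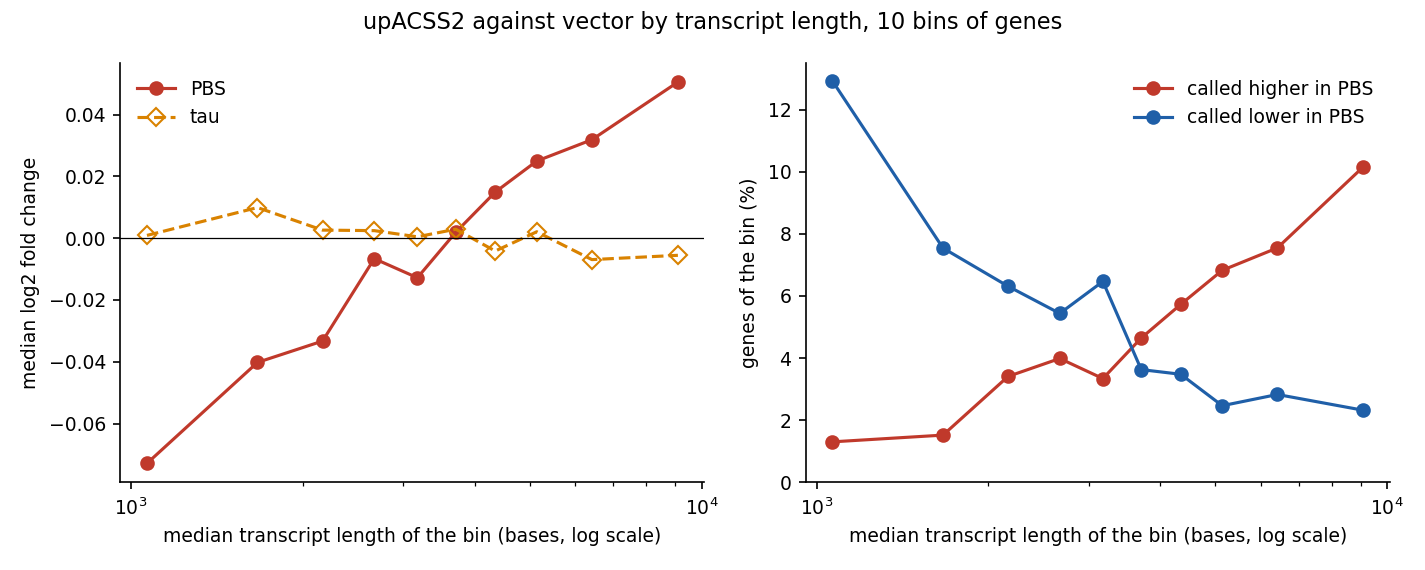
Left, median log2 fold change of upACSS2 over vector in 10 bins of genes ordered by transcript length, in PBS (filled circles) and in tau (open diamonds), against the bin's median length on a log axis. Right, percent of genes in each bin that passed in PBS, higher (red) or lower (blue). The PBS median rises from -0.07 to 0.05 along the bins and the tau median stays near 0.

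Of 39 tested genes of the unfolded protein and integrated stress responses 7 fell and 0 rose (17.9% called, against 10.2% of all genes tested), with a median of -0.11. Atf4, the factor that drives the integrated stress response, was at 130.1, 129 and 146 CPM with upACSS2 and 206, 152 and 139.6 CPM with vector, which overlap (-0.31, adjusted p = 0.0366). Its known targets Ddit3 (-0.36), Chac1 (-0.48) and Slc7a11 (-0.53, a cystine transporter) fell. Phgdh, the first enzyme of serine synthesis, was at 28.4, 23.9 and 24.1 CPM against 32.1, 34.3 and 31.1 CPM (-0.34, adjusted p = 0.00552). Chac1 was at 6.77, 6.05 and 7.75 CPM against 11.9, 7.64 and 8.27 CPM, and Slc7a11 at 5.14, 4.10 and 5.16 against 7.41, 5.04 and 8.39 CPM. Both genes overlapped between the groups. With single libraries left out 2 (without vector replicate 1) to 8 members fell.

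Promoters of Slc7a11 and Chac1 are shown because they carry the C/EBP-ATF response element to which ATF4 is known to bind. Capitals mark TGATGNAA or its reverse complement TTNCATCA in the 250 bases before the RefSeq start (GRCm38.p6): Slc7a11 at chr3:50443614-50443863 (minus strand) and Chac1 at chr2:119350992-119351241 (plus strand).
Slc7a11: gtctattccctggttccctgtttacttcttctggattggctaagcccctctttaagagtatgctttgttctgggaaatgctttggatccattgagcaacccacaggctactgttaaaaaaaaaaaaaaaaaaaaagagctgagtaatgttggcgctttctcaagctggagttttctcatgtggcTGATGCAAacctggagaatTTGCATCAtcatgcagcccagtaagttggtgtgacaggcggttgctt
Chac1: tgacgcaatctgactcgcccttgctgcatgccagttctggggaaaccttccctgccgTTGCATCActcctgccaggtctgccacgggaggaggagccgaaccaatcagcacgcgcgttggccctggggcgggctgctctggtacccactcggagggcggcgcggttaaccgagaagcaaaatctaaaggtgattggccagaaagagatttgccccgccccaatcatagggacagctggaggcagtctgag
Slc7a11 had 2 matches and Chac1 1. Of 39 tested list members 36 matched the table, and 7 (19.4%) had the element, against 2.4% of tested genes.

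Of 38 activity-induced genes, which neurons switch on after calcium entry, 5 fell and 1 rose (Fosl2, 0.17). That was 15.8% called, against 10.2% of all genes tested, and 28 were negative, with a median of -0.20. Nr4a1 was at 7.29, 6.81 and 9.73 CPM with upACSS2 and 13.7, 11.1 and 9.66 CPM with vector (-0.56, adjusted p = 0.0236). Fos was at 11.71, 8.51 and 14.4 CPM against 15.96, 16.1 and 13.8 CPM (-0.39, adjusted p = 0.0395). In both genes the groups overlapped. Bdnf, the neurotrophin, was at 75.9, 60.2 and 86.5 CPM against 110.5, 87.8 and 86.6 CPM, so that the groups almost met. Vgf was at 79.7, 75.9 and 98.8 CPM against 142, 106 and 93.2 CPM, which overlap (-0.44), and Maff changed by -0.78. Single libraries left out gave 0 (without vector replicate 1 or upACSS2 replicate 2) to 10 members lower (without upACSS2 replicate 3), and leaving out both second replicates gave 0.

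The cAMP response element TGACGTCA, which is its own reverse complement, was in 6 of the 28 activity-induced genes that matched the promoter table (21.4%), against 3.1% of tested genes. Of 22 heat shock genes 6 fell and 2 rose, with Hspe1 and Hspd1, the mitochondrial chaperonin pair, at -0.25 and -0.17 and Trap1 at 0.16. The share called was 36.4%, against 10.2% of all genes tested. Single libraries left out gave 1 (without vector replicate 2) to 5 members lower. Of 26 NRF2 antioxidant genes 6 fell and 0 rose (Gpx1 -0.34, Gsta4 -0.25, Sod1 -0.23, median -0.03), or 23.1% called against the same 10.2%. Their number that fell ran from 0 (without vector replicate 1) to 6 with 1 library left out. Of 39 lysosome and autophagy genes 17.9% were called. Naglu, Tpp1 and Ulk1 rose by 0.47, 0.29 and 0.23, and 4 fell (among them Gusb -0.41, Hexa -0.24). Of 35 splicing and RNA-binding genes 4 rose and 5 fell, or 25.7% called. Among them the nuclear RNA Neat1 was at 3.39, 2.96 and 3.58 CPM against 6.45, 5.04 and 5.90 CPM (-0.82, adjusted p = 0.00223, edgeR). Srsf4 changed by -0.35, Hnrnpa2b1 by -0.25 and Elavl3 by 0.19. Without vector replicate 1 or upACSS2 replicate 2, 1 lysosome and autophagy gene rose and 1 fell, and 1 splicing gene rose.

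Of 26 p53 targets Cdkn1a and Bax fell by 0.22 and 0.22 and Plk2 rose by 0.16. Of 30 extracellular matrix genes Thbs1 rose by 0.47 and Bcan fell by 0.24. Of 34 tau and microtubule genes 2 rose (Map2, Mapt) and 1 fell (Kif5c, -0.11). Of 26 neuropeptide and neurotrophin genes Sst rose and Vgf and Bdnf fell, with overlap between the groups for Vgf. The shares called in these 4 lists were 11.5%, 6.67%, 8.82% and 11.5%, near or below the 10.2% over all genes tested. Of 13 interferon and 12 NF-kB and chemokine genes tested, of 30 and 26 listed, 0 passed with edgeR or DESeq2, and 1 of each had an unadjusted p under 0.05.

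**Figure D5:**
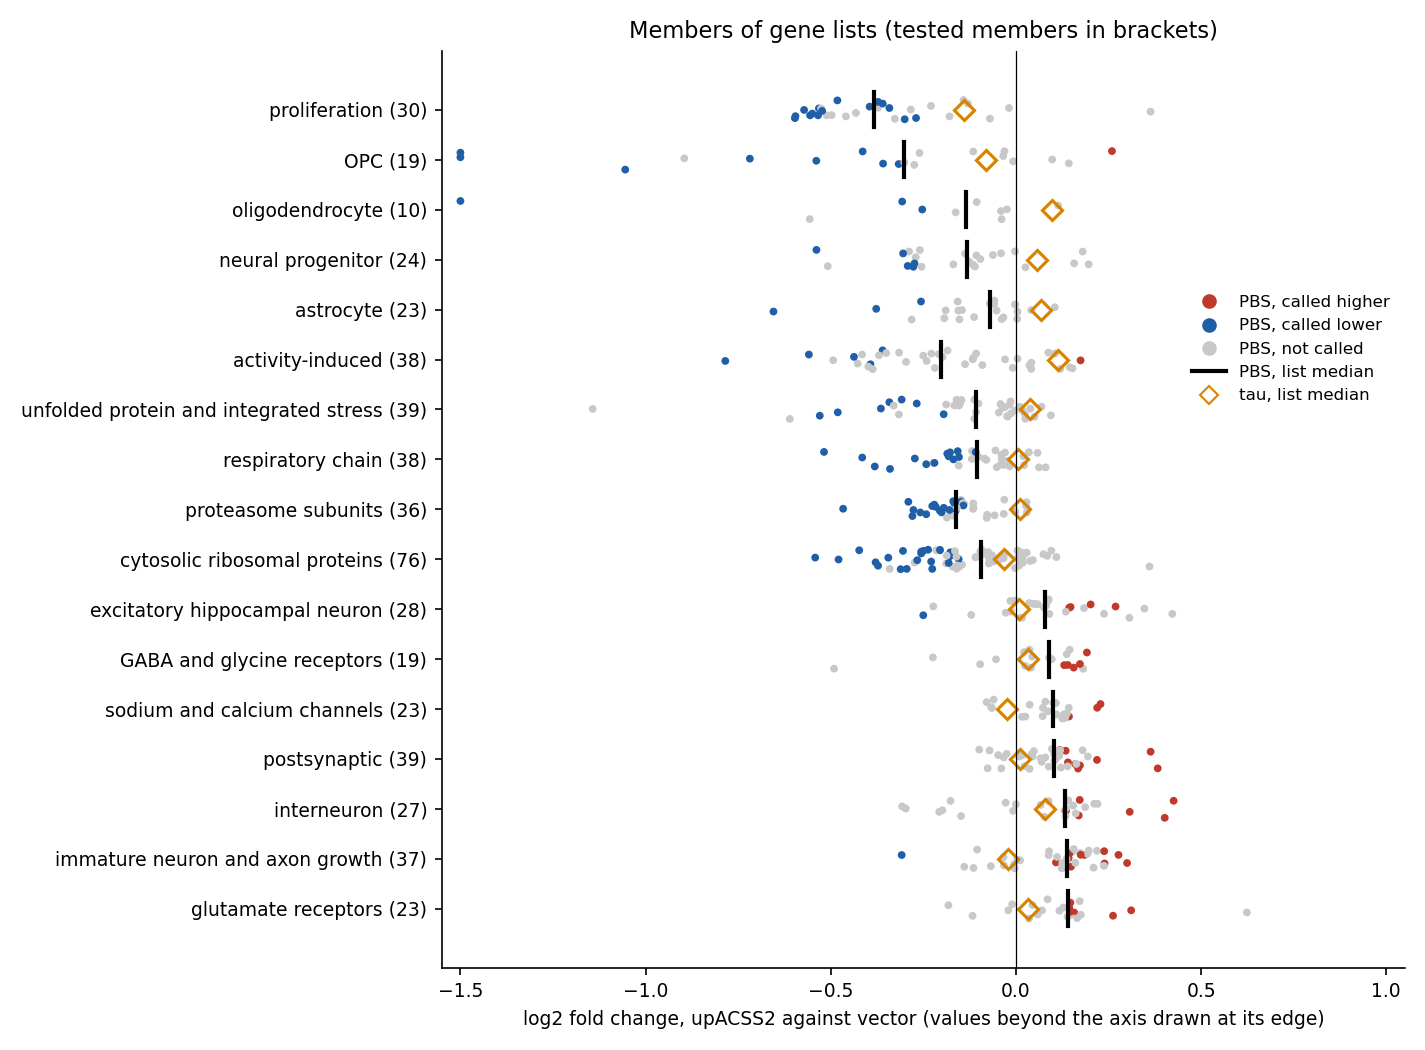
Log2 fold change of each tested member of 17 lists in PBS (points, coloured where called), the list median in PBS (black bar) and the list median in tau (open orange diamond). Sox10, Pdgfra and Bcas1 lie beyond the axis and are drawn at its edge. Proliferation and precursor genes have the lowest medians in PBS (-0.38 and -0.30), and glutamate receptor and immature neuron genes the highest (0.14 each).

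Outside the lists, Fam71e1 (chromosome 7, 44496581 to 44501486) had the largest rise after Acss2 among the genes named by rule, at 6.30, 6.81 and 6.60 CPM with upACSS2 and 3.005, 2.84 and 2.83 CPM with vector. Its log2 fold change was 1.17 ± 0.12 (SE; adjusted p = 1.83e-05, edgeR). Stc1, a secreted glycoprotein, was at 8.29, 8.32 and 8.49 CPM against 5.86, 4.98 and 5.78 CPM (0.58, adjusted p = 0.00231), and Galns, a lysosomal sulfatase, at 12.9, 14.1 and 13.5 CPM against 8.99, 9.21 and 9.197 CPM (0.56, adjusted p = 0.000719). Fndc10 rose by 0.58, Slc44a5, a choline transporter-like gene, by 0.55 and Tgfbr3, a TGF-beta co-receptor, by 0.53. Vwa3b rose by 0.55, Dusp23 by 0.53, Zfp454 by 0.53, Cobl by 0.51 and Vgll3 by 0.51. All of these groups of 3 were free of overlap, which the rule for naming them required.

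Among the falls, S100a10, a partner of annexin A2, was at 6.97, 6.18 and 8.44 CPM with upACSS2 and 13.7, 12.8 and 10.8 CPM with vector (-0.80 ± 0.12 SE, adjusted p = 0.000721). Rasgrf1, a calcium-regulated Ras exchange factor of neurons, was at 10.2, 9.70 and 14.3 CPM against 17.3, 18.8 and 17.9 CPM (-0.65, adjusted p = 0.00307). Lurap1 fell by 0.65, Col9a3, a cartilage-type collagen, by 0.64 and Eci1, an enzyme of fatty acid oxidation, by 0.64. Lurap1 shares exon positions with Pomgnt1 and Col9a3 with Tcfl5. Against a minimum fold of 1.2 in the null hypothesis itself, 5 genes passed: Acss2, Fam71e1, Pdgfra, S100a10 and Sox10.

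The same virus contrast in hAD-tau gave 97 genes (0.692% of those tested), 51 higher and 46 lower. Genes called higher in PBS had a median of 0.21 there and 0.03 in tau, and genes called lower had -0.26 and -0.03. These contrasts use different libraries. The genes were selected by the PBS contrast, so smaller medians in tau follow in part from that choice. Whether the response is smaller in tau cannot be read from these medians. In all, 892 of the 1437 genes (62.1%) had the same sign in tau, against 53.6% of all genes tested. Both contrasts called 41 genes, 38 of them in the same direction. Rbmx, an RNA-binding protein, was at 90.2, 101 and 95.4 CPM with upACSS2 and 71.9, 66.5 and 69.4 CPM with vector in PBS, and at 95.6, 89.8 and 84.1 against 60.2, 63.4 and 64.0 CPM in tau. Its log2 fold changes were 0.46 (adjusted p = 7.16e-05) and 0.52 (adjusted p = 1.78e-05), and the groups did not overlap in either condition. Sprn, a prion-related gene, changed by 0.43 and 0.41, Inpp5k, an inositol phosphatase, by 0.46 and 0.43, and the histone genes H2bu2 and H2aw by 0.39 and 0.36 in PBS and 0.34 and 0.39 in tau. Rbmx, Sprn, Inpp5k, H2bu2 and H2aw were chosen after their values were seen.

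The difference between the contrasts was tested directly: it passed for 93 genes (0.663%), of which 76 were called in PBS. The difference contains the PBS contrast, so these 76 are not independent of the PBS calls. Klf7, Dpysl2 and Rgma, chosen after their values were seen, are the 3 genes that passed in each of the 5 single-library omissions that called only 3. Klf7, a factor of axon growth, was at 57.0, 55.1 and 52.7 CPM with upACSS2 and 41.7, 41.8 and 41.8 CPM with vector in PBS, and at 44.9, 45.2 and 46.6 against 49.3, 58.6 and 51.2 CPM in tau (tau minus PBS -0.61, adjusted p = 0.000948). Dpysl2, which encodes the growth cone protein CRMP2, rose in PBS by 0.38 and fell in tau by 0.32. Rgma, an axon guidance ligand, rose in PBS by 0.23 and fell in tau by 0.29. The count of 93 ran from 3 to 918 when 1 library was left out, with 918 reached without vector in tau replicate 3. Of the precursor genes, Pdgfra had a difference of 1.75 (adjusted p = 0.0758) and Sox10 of 2.32 (adjusted p = 0.119), so a different response in tau was not shown for them.

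The vector libraries in PBS stood furthest from the rest. For 918 of 14022 genes (6.55%) the 3 vector PBS libraries lay above or below all 9 other day 9 libraries, against 403 genes (2.87%) for upACSS2 in PBS, 374 (2.67%) for vector in tau and 228 (1.63%) for upACSS2 in tau. Among the 1437 called genes the vector PBS libraries lay beyond the other 9 for 234 called higher and 217 called lower, and the upACSS2 PBS libraries for 103 and 110. Those genes were chosen by a contrast that uses both PBS groups, so these shares describe them only. Along the first principal component, with 17.3% of the variance, vector in PBS lay at 8.24 to 10.6, vector in tau at -0.595 to 7.87, upACSS2 in PBS at -11.6 to -4.91 and upACSS2 in tau at -6.44 to -4.00. Whether the labels of vector in tau and upACSS2 in PBS, which contradict the titles, bear on this was not tested.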

How the data were processed

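RNA from 12 day 9 samples was sequenced, and 1 deposited table of raw counts per gene was used. The submitters' processing notes name STAR, featureCounts, HTSeq, DESeq2 and mm10, without roles. The strand setting and annotation of the counting are not given in the sources used here. The deposited counts were tested with edgeR 4.0.16 (R 4.3.3; TMM scaling, filterByExpr by group, quasi-likelihood F test, Benjamini-Hochberg threshold 0.05) in 1 fit of 4 groups of 3. The fit was tested on simulated data. All 12 pairs of replicates differed by more than sampling noise, with a chi-square per gene of at least 2.32. Samples were grouped by title.

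The named genes were Acss2, the 12 highest and 12 lowest called log2 fold changes whose mean log2 CPM reached 2, whose groups did not overlap and whose symbols were not those of predicted genes, at most 4 called members with the largest change per list, and defining markers. Other named genes were chosen after their values were seen. Members and lists were chosen with earlier results of these data known. Alternatives were DESeq2 1.42.0, scaling by RLE, testing genes of any count, fitting only the 6 libraries of a contrast, fitting all 24 unstimulated libraries, a replicate block, a test against a fold of 1.2 and leaving out each library. Leaving out both second PBS replicates and removing a transcript length trend were added after the data were seen. Transcript lengths and gene coordinates came from GENCODE vM21 (GRCm38), and promoters from RefSeq (GRCm38.p6). Some members of the lists are counted but not reported here by name.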

Additional observations from a re-analysis of the deposited data

Results flagged for a closer look

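The upACSS2 effect differed between hAD-tau and PBS for 93 genes by a test of the difference itself (edgeR, adjusted p under 0.05). These values share the PBS libraries with the contrast that named the genes, and the count ran from 0 to 918 over the fits tried. Among named genes the tau minus PBS difference in log2 fold change was -0.79 for Fam71e1, -0.67 for Slc44a5, -0.33 for Elovl2 and -0.31 for Elavl3. It was 0.80 for Col9a3, 0.74 for Fabp7, 0.49 for Phgdh, 0.40 for Cycs, 0.40 for Pmvk and 0.39 for Thrsp. Fabp7, the brain fatty acid binding protein, fell by 0.65 in PBS and had a log2 fold change of 0.09 in tau.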

How the results depend on the processing

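Of the 124 genes named by the rule, each kept its direction under the alternatives that gave it an adjusted p. DESeq2 gave none for 8 of them, and with only the libraries compared Sox10 was not tested. Many of the 124 genes no longer passed: 27 to 58 with a single PBS library left out and 123 with all 24 unstimulated libraries. The number was 120 against a fold of 1.2, 13 with the length trend removed and 8 among those that DESeq2 tested. Counts are given in the order PBS, tau and the difference between them, against 1437, 97 and 93. RLE size factors gave 1440, 97 and 94. DESeq2 gave 1269, 113 and 327, and no filter on low counts 1898, 368 and 794. With only the libraries compared the first pair was 1599 and 54. All 24 unstimulated libraries gave 2 (Acss2, Pdgfra), 1 (Acss2) and 0 (376 at an unadjusted p under 0.05). A test against a fold of 1.2 gave 5, 1 (Acss2) and 0 (393 unadjusted). Leaving out single libraries gave 529 to 1287, 14 to 132 and 3 to 918. The lowest PBS count was without vector replicate 1. The 14 was without vector in tau replicate 2, and both 132 in tau and 918 were without vector in tau replicate 3. Leaving out both second PBS replicates, chosen after seeing the data, gave 220 in PBS and 4 for the difference (Dpysl2, Kcnj16, Klf7, Rgma), and 82 of the 124 such genes no longer passed. Removing the length trend, also chosen after seeing the data, gave 1462, 182 and 172, with 81.2% of the PBS calls shared. Same-numbered libraries correlated at -0.03, 0.25 and 0.01 in PBS and -0.19, 0.07 and -0.17 in tau (replicates 1, 2 and 3). Only the second PBS pair exceeded the threshold of 0.1 set for a pairing. Whether the second PBS replicates share a batch was not tested. The replicate block gave 1344, 79 and 142. Sequencing depth limits the low genes, since Sox10 had 7 counts over the 3 upACSS2 libraries.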
